A study of Mus musculus with 3 samples.

Results

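The genes described here are the potassium channel genes of the mouse, taken as every gene symbol that starts with Kcn followed by a subfamily letter code and, where present, a number. Of 99 such symbols in the gene tables of all 3 libraries, 86 had at least 3 unique molecular identifiers (UMIs, each counting 1 captured RNA molecule) in some library, and these 86 of the 31744 symbols measured are the members, while 13 fell under that minimum. Names that end in -ps or Rik were left out. Of the members, 82 code for proteins, which fall into 15 subfamilies, and 4 are noncoding RNAs. The count minimum was passed narrowly by Kcna3 and Kcnj9, each with 3 UMIs in its best library, and missed by Kcna7, Kcne2 and Kcnmb3, each with 2.

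Potassium channels let potassium leave the cell, which holds the resting membrane potential and ends each action potential. Voltage-gated channels of the Kv subfamilies open on depolarization, and tandem-pore (Kcnk) channels carry a leak at rest. Inward rectifiers (Kcnj) pass current best near rest. Most Slo channels and the SK channels open with intracellular calcium or sodium. Modifier subunits form no channel alone, and cytoplasmic or membrane partners (Kcnab, Kcnip, Kcnmb, Kcne) change the gating or the transport of the pores. Motor neurons are known to use Kv2 channels at their cholinergic synapses, Kv7 channels for the M-current that damps repeated firing, acid-sensitive tandem-pore channels for their leak, and SK channels for the pause after each spike.

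The libraries came from mouse embryonic fibroblasts under direct conversion to induced motor neurons, with 1 library in each of 3 groups. The cells of every group carried the Hb9::GFP reporter, green fluorescent protein under control of Mnx1 (Hb9), a motor neuron gene, and the introduced factors called LNI (mouse Lhx3, an HA-tagged mouse Ngn2, which is Neurog2, and Isl1) and DDRR (HRAS(G12V), an activated Ras protein, with p53DD, a p53 fragment that blocks the normal protein). The groups were Hb9::GFP-positive cells at 14 dpi (dpi as the labels count time) from a culture with supplements, Hb9::GFP-positive cells at 14 dpi from a culture without supplements, and cells with low CellTrace-FarRed, a dye that divisions dilute, at 4 dpi with supplements. The supplements were BDNF, CNTF, GDNF, FGF and RepSox, an inhibitor of a TGF-beta receptor kinase. Cells at 14 dpi were dissociated with papain and DNase and those at 4 dpi with trypsin, so time, sort gate and dissociation cannot be told apart between 14 and 4 dpi. The unsupplemented 14 dpi library also differs from the 4 dpi library in supplements, which cannot be told apart from these either. The sources used here do not give how many embryos or cultures stand behind a library, and with 1 library per group no difference below has a replicate check or a p-value.

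After filtering, 2314, 3716 and 4492 cells were kept in the supplemented, unsupplemented and 4 dpi libraries, with median depths of 14380.5, 10664 and 2312.5 UMIs. Of these cells, 1339 (57.9%), 985 (26.5%) and 48 (1.07%, 95% exact binomial interval 0.789 to 1.41) held a UMI of Stmn2, the neuronal microtubule regulator that splits the cells here. Among cells with at least 3 UMIs of both collagen genes Col1a1 and Col3a1, which should lack Stmn2, the shares were 21.7%, 9.92% and 0.826% (0.269 to 1.92 at 4 dpi; median UMIs 13471, 10806 and 2201), so the 4 dpi share lay inside the interval of the collagen cells. The 48 Stmn2-positive cells at 4 dpi still differed from the rest in other neuron markers. Apart from Stmn2, 17 neuron markers summed to 5103 CPM in them and to 1750 CPM in the Stmn2-negative cells, with 12 of 15 called higher (2-fold or more, with a 95% counting interval that left out no change) and none lower, at median depths of 2570.5 and 2311.5 UMIs. With every cell thinned to 1000 UMIs, which left out 31, 22 and 113 shallower cells, the shares were 33.6%, 12.2% and 0.480%, against 3.62%, 2.12% and 0.335% in the collagen cells. The 18 neuron markers summed to 10703, 6523 and 1795 CPM (UMIs scaled to 1e+06 in all), and the 15 fibroblast markers to 2708, 3940 and 7427 CPM. The 11 motor neuron markers summed to 374, 398 and 253 CPM, and Isl1 and Lhx3 among them also read the introduced genes. Against 4 dpi, 8 were called higher with supplements and 7 without, and none lower. With supplements over without, Isl2 was called higher and Chat and Ecel1 lower. Mnx1 had 12.0, 21.4 and 0.574 CPM and Chat, which makes acetylcholine, 1.96, 4.03 and 0 CPM. Slc5a7 had 19.6, 28.1 and 39.1 CPM, highest at 4 dpi, and Isl2 had 5.27, 0.872 and 1.72 CPM. Markers of skeletal muscle, astrocytes, oligodendrocytes, immune cells and keratinocytes, 6 of each, summed to between 2.21 and 124 CPM. Between 3 and 5 cell barcodes were shared by each pair of libraries.

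Promoter sequence is given for 3 members whose levels at 14 dpi exceeded those at 4 dpi in both comparisons and were higher in Stmn2-positive than in Stmn2-negative cells of both. They are Kcnc1, a Kv3 pore of fast-firing neurons (ENSMUSG00000058975), Kcnd2, a Kv4 pore of the dendritic A-type current (ENSMUSG00000060882), and Kcnma1, the pore of the large-conductance BK channel (ENSMUSG00000063142). Each window runs from 250 bases before to 50 bases after the start of a RefSeq transcript on GRCm38.p6, 5′ to 3′ on the strand of the gene, at chr7:46396218-46396517 (+), chr6:21215096-21215395 (+) and chr14:24004156-24004455 (−). Capitals mark GC boxes, the letters GGGCGG on either strand.
Kcnc1: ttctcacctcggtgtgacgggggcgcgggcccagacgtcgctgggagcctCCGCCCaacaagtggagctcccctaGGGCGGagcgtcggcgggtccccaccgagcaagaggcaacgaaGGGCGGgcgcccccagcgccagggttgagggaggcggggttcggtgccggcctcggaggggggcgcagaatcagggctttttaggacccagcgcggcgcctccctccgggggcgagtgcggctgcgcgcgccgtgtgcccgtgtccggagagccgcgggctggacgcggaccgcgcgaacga
Kcnd2: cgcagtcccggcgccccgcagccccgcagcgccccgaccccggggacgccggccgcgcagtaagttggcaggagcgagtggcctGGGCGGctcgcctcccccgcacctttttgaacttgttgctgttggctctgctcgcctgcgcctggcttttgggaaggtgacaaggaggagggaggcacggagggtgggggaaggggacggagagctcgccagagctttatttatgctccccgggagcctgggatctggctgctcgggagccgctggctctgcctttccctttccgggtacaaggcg
Kcnma1: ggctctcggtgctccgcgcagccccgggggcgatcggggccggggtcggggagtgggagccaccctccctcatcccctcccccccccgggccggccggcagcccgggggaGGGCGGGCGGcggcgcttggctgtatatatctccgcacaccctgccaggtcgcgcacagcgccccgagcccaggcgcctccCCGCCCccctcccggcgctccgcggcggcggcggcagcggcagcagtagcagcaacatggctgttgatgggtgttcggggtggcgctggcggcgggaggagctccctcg
These windows hold 3, 1 and 3 GC boxes (overlapping matches counted) and 41, 26 and 36 CpG pairs. GGGCGG was found in 50.6% of the 81 windows that matched 61 of the 86 members, against 35.7% of all 32851 windows in the table. The E-box letters CAGATG were found in 16.0% of member windows against 17.2% of all, the E-box CAGCTG in 25.9% against 16.3%, and the homeodomain core TAATTA in 0% against 5.29%, each on both strands. None of these 3 motifs was found in the windows printed above. Member windows held a median of 10 CpG pairs, against 7 over all windows, and the part of this in the motif shares was not tested. The matches describe the letters of these windows and were not tied to binding.

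Potassium channel transcripts were most abundant at 14 dpi with supplements. The 82 protein-coding members summed to 677 CPM in the supplemented library (95% counting interval 669 to 685), 443 CPM in the unsupplemented one (437 to 450) and 186 CPM in the 4 dpi library (179 to 194). The pore-forming and modifier members alone gave 487, 310.3 and 114 CPM. CPM sums over all kept cells, so more cells with a transcript and more transcript per cell cannot be told apart, and these intervals cover counting error only. Of the 86 members, 56, 49 and 26 reached 1 CPM and 18, 15 and 5 reached 10 CPM, at depths of 36782509, 45855979 and 12202809 UMIs. Each UMI stands for 1 RNA end whatever the transcript's length, so levels of different genes are set side by side without a length correction.

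A few genes led in every library. At 14 dpi with supplements the leading protein-coding member was Kcnb2, a Kv2 delayed rectifier, with 110.4 CPM and 16.3% of the UMIs of protein-coding members. It was followed by Kcnip1, a calcium-binding partner of Kv4 pores, with 72.7 CPM, and by Kcnab1, a cytoplasmic Kv beta subunit, with 67.7 CPM. Without supplements the order was Kcnip1 (57.2 CPM), Kcnb2 (50.4 CPM) and Kcnab1 (26.9 CPM), and at 4 dpi Kcnb2 (48.6 CPM), Kcnab1 (34.3 CPM) and Kcnk2 (17.1 CPM), a mechanically gated tandem-pore channel. At 4 dpi Kcnb2 alone gave 26.1% of the protein-coding members' UMIs, a larger share than any member had at 14 dpi. The tandem-pore subfamily gave 134, 71.2 and 24.7 CPM in the supplemented, unsupplemented and 4 dpi libraries, and the inward rectifiers 33.2, 34.1 and 9.59 CPM. The Kv4 pores gave 36.2, 20.1 and 3.03 CPM, and the Slo genes 26.6, 24.1 and 3.69 CPM.

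**Figure D1:**
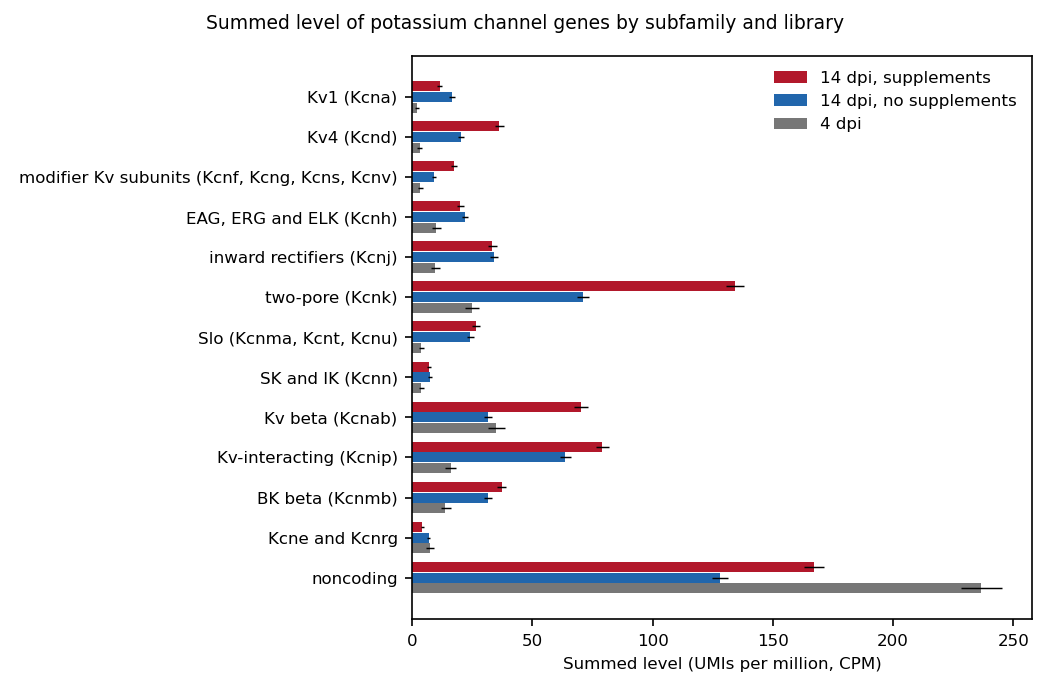
Summed level of potassium channel genes for 13 groups of members (rows, by subfamily) in CPM (linear axis from 0) for the supplemented 14 dpi, unsupplemented 14 dpi and 4 dpi libraries; bars are sums over members and lines are 95% Poisson counting intervals. Kv1, Kv4, the modifier subunits, Slo, and SK and IK stood under 4 CPM at 4 dpi. The noncoding group, almost all Kcnq1ot1, was highest at 4 dpi.

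Most members that could be compared were higher at 14 dpi than at 4 dpi. A member was called when its CPM differed 2-fold or more, its 95% counting interval left out no change, and both sums together held at least 20 UMIs. With supplements, 46 of 67 members with enough UMIs were called higher and 3 lower than at 4 dpi, while 21.5% of all 15291 symbols were called higher and 10.3% lower. Without supplements, 45 of 65 were called higher and 3 lower, while 20.7% of 15180 symbols were called higher and 10.7% lower. The median log2 ratio of members was 2.15 with supplements and 1.97 without, against 0.20 and 0.17 over all symbols tested. Both comparisons use the same 4 dpi library, so they are not separate evidence. No test sets the members against other genes. Neuron markers moved the same way (18 and 16 of 18 called higher), while 12 and 6 of 15 fibroblast markers and 7 and 6 of 8 cell-cycle markers were called lower, and their part in the channel levels was not tested.

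The Kv7 genes described here differed in direction. Kcnq3, a subunit of M-channels, had 7.39, 1.37 and 0.328 CPM in the supplemented, unsupplemented and 4 dpi libraries, log2 ratios to 4 dpi of 4.50 (3.12 to 6.38) and 2.07 (0.64 to 3.99), and was called higher in both. Kcnq1, the cardiac and epithelial member, had 0.136 and 0.196 CPM in the supplemented and unsupplemented 14 dpi libraries against 0.901 CPM at 4 dpi. From 9 against 11 UMIs it was called lower without supplements, and with supplements it had too few UMIs for a call.

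Kv3 genes were called higher in both 14 dpi libraries. Kcnc1 had 21.9 and 11.4 CPM in the supplemented and unsupplemented 14 dpi libraries and 0.492 CPM at 4 dpi, log2 ratios of 5.48 (4.35 to 6.93) and 4.53 (3.40 to 5.99). Kcnc2 and Kcnc4, which also form high-threshold channels, had between 4.14 and 14.0 CPM at 14 dpi and between 0.656 and 1.23 CPM at 4 dpi. Among A-type Kv4 pores, Kcnd2 had 17.8, 9.29 and 1.39 CPM and Kcnd3 16.6, 6.63 and 0.328 CPM in the supplemented, unsupplemented and 4 dpi libraries. Kcnd1, the third Kv4 pore, had 1.82, 4.21 and 1.31 CPM and was called higher without supplements (log2 1.68, 0.95 to 2.52), with 0.47 (-0.33 to 1.36) in the library with them.

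Other voltage-gated genes differed less evenly. Kcnb2 was already at 48.6 CPM at 4 dpi, and its 50.4 CPM without supplements gave a log2 ratio of 0.05 (-0.08 to 0.19), while its 110.4 CPM with supplements gave 1.18 (1.06 to 1.31). Of Kv1 pores, which sit on axons, Kcna1 had 5.30, 8.85 and 0.574 CPM and Kcna6 4.19, 4.43 and 0.164 CPM, both called higher at 14 dpi in either library. Kcna4, the A-type Kv1 pore, had 0.571, 2.20 and 0.574 CPM, with a log2 ratio to 4 dpi of -0.01 (-1.29 to 1.47) with supplements and 1.94 (0.85 to 3.29) without. The ether-a-go-go gene Kcnh1 had similar levels of 9.52, 8.48 and 7.54 CPM and was not called, while the ERG gene Kcnh2 had 7.80, 10.2 and 1.88 CPM and was called higher in both.

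Among leak channels, Kcnk9, an acid-sensitive (TASK) pore, had 52.1 and 16.6 CPM in the supplemented and unsupplemented 14 dpi libraries and 0.983 CPM at 4 dpi, log2 ratios of 5.73 (4.92 to 6.68) and 4.08 (3.27 to 5.04). Its relative Kcnk3 had 6.14, 15.2 and 0.819 CPM, with the higher level in the library without supplements. Kcnk2 was present early, with 46.5 and 24.0 CPM at 14 dpi and 17.1 CPM at 4 dpi, and was called higher with supplements (log2 1.44, 1.23 to 1.65), against 0.49 (0.27 to 0.71) without. Of the inward rectifiers, Kcnj5, a G-protein-gated (GIRK) subunit, led at 14 dpi with 23.2, 22.7 and 2.62 CPM, and Kcnj2, a strong rectifier, led at 4 dpi with 2.85, 1.61 and 2.87 CPM.

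All 4 Slo genes were called higher in both 14 dpi libraries. Kcnma1 had 19.3 and 18.0 CPM in the supplemented and unsupplemented 14 dpi libraries and 1.88 CPM at 4 dpi, log2 ratios of 3.35 (2.76 to 4.02) and 3.26 (2.66 to 3.92). Its beta subunits differed from each other. Kcnmb2, which inactivates the channel, had 21.0, 17.8 and 4.34 CPM, Kcnmb4, the neuronal beta subunit, had 15.1, 13.3 and 6.80 CPM, and Kcnmb1, the smooth muscle beta subunit, had 1.09, 0.371 and 2.62 CPM and was called lower in both. The contractile markers summed to 22.7, 37.9 and 164 CPM in the same order, with 3 and 2 of 3 called lower and Myh11 at 0 at 4 dpi, and their part in the Kcnmb1 result was not tested. A similar split was seen in the SK family. The neuronal SK gene Kcnn3 had 3.43, 3.51 and 0.410 CPM and Kcnn2 1.39, 1.64 and 0.0819 CPM, while Kcnn4, the intermediate-conductance channel of non-excitable and dividing cells, had 0.381, 1.55 and 2.79 CPM and was called lower with supplements (log2 -2.87, -3.88 to -1.94).

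Accessory genes and noncoding RNAs completed the set. Kcnip1 had 72.7 and 57.2 CPM in the supplemented and unsupplemented 14 dpi libraries and 14.6 CPM at 4 dpi and was called higher in both. Kcnab1 had 67.7, 26.9 and 34.3 CPM, with log2 ratios of 0.98 (0.83 to 1.14) and -0.35 (-0.51 to -0.19), so that the libraries lay on either side of 4 dpi. Kcne1l, also called Kcne5, a membrane partner of Kv pores, had 2.85, 6.08 and 5.98 CPM and was called lower with supplements, and Kcne4 had 0.979, 0.393 and 1.15 CPM and was called lower without them. Kcnq1ot1, the imprinted noncoding RNA that overlaps Kcnq1, was the most abundant member of each library, with 162, 125 and 236 CPM, and was lower at 14 dpi by less than 2-fold. The sources used here do not give whether the strand of reads was used in counting, so values of Kcnq1ot1 and Kcnq1, Kcnd3os and Kcnd3, Kcnmb4os2 and Kcnmb4, and Kcnab3os and Kcnab3 are uncertain.

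**Figure D2:**
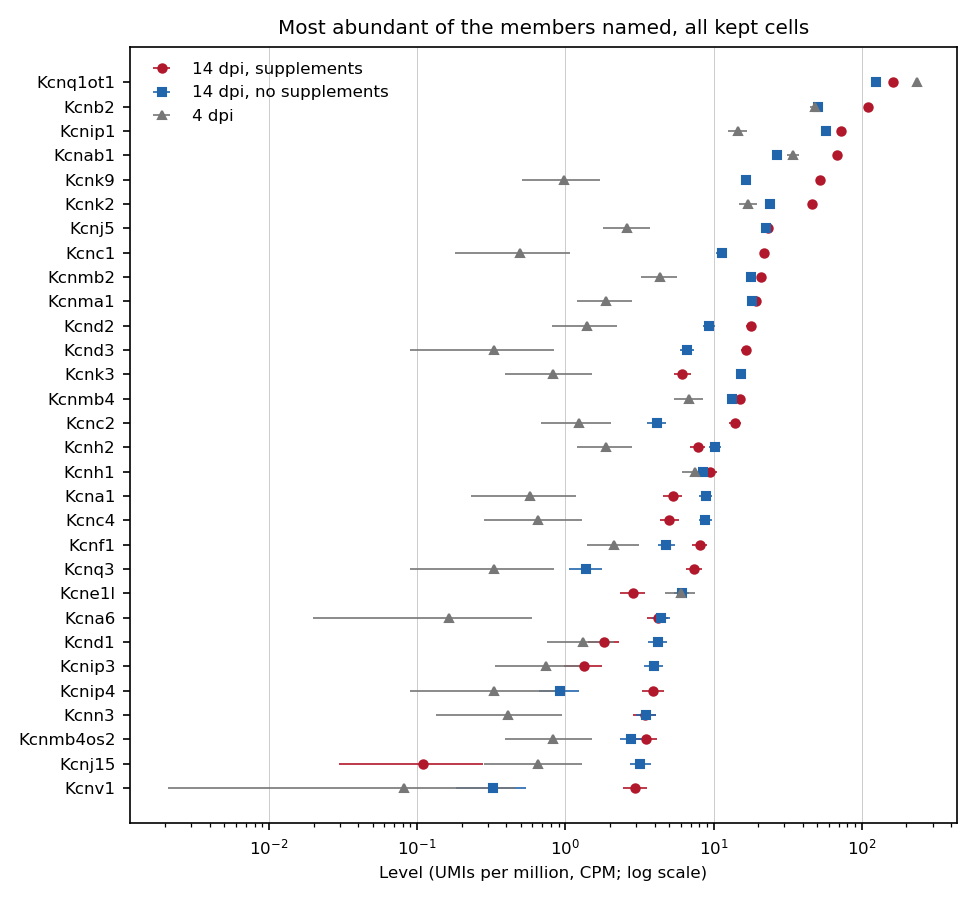
Level in CPM (log axis) of the most abundant of the members named in the text (rows) in all kept cells of the supplemented 14 dpi, unsupplemented 14 dpi and 4 dpi libraries, with 95% Poisson counting intervals. Kcnb2, Kcnab1, Kcnk2 and Kcnh1 lie closer together across the libraries than Kcnd3, Kcnc1 and Kcnk9, which are more than 10 times lower at 4 dpi than in either 14 dpi library.

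Within each 14 dpi library, Stmn2-positive cells held more potassium channel transcript than Stmn2-negative cells. The protein-coding members summed to 748 CPM in Stmn2-positive and 561 CPM in Stmn2-negative cells with supplements, a log2 ratio of 0.42 (0.38 to 0.45). Without supplements they summed to 710.3 and 324 CPM, a log2 ratio of 1.13 (1.09 to 1.17). The Stmn2-positive cells of both libraries thus lay near each other in this sum, and the Stmn2-negative cells lay further apart. With supplements, 25 of 64 members with enough UMIs were called higher and 3 lower in Stmn2-positive cells, while 8.51% of 14813 symbols were called higher and 7.04% lower. Without supplements, 37 of 61 were called higher and 1 lower, while 11.8% of 14729 symbols were called higher and 6.22% lower. Of the members called higher, 21 were shared, 84% of the 25 and 56.8% of the 37. The overlap over all symbols was not counted, so these shares have no background.

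The Stmn2 split also separated other features of the cells. Fibroblast markers summed to 1677 CPM in Stmn2-positive and 4381 CPM in Stmn2-negative cells with supplements, and to 1723 and 4938 CPM without, with 9 and 11 of the 15 called lower and none at 0. Cells with at least 2 UMIs of the cell-cycle genes Mki67 and Top2a made up 4.93% of Stmn2-positive and 16.0% of Stmn2-negative cells with supplements, and 4.67% and 12.9% without. Median depth was 15241 UMIs in Stmn2-positive and 13158 in Stmn2-negative cells with supplements, and 12245 and 10214 without. With every cell thinned to 1000 UMIs, fewer members held enough UMIs, and 7 of 19 and 14 of 22 were called higher and none lower with and without supplements, while 6.74% and 9.54% of all symbols were called higher and 5% and 5.47% lower. The part of the fibroblast markers in the channel ratios was not tested. With the cycling cells left out, 19 members were called higher and 3 lower with supplements, and 35 and 2 without, 22 and 35 of these calls being among those of all cells. Under that setting 7.56% of all symbols were called higher and 5.87% lower with supplements, and 11% and 5.85% without.

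Kcnq3 and 2 of the 3 A-type Kv4 pores were called higher in Stmn2-positive cells of both libraries. Kcnq3 stood at 9.97 and 3.21 CPM with supplements and at 4.01 and 0.19 CPM without, the last from 6 UMIs, with log2 ratios of 1.64 (1.17 to 2.13) and 4.40 (3.19 to 5.91). Kcnd2 stood at 24.4 and 7.06 CPM with supplements and at 24.0 and 2.66 CPM without, close to each other in the Stmn2-positive cells, and its log2 ratios were 1.79 (1.48 to 2.11) and 3.18 (2.83 to 3.54). Kcnd3 had log2 ratios of 1.95 (1.62 to 2.30) and 1.73 (1.39 to 2.07), and Kcnip4, a Kv4 partner, 2.11 (1.39 to 2.91) and 2.48 (1.47 to 3.58). Kcnd1 did not share this pattern, with -0.48 (-1.22 to 0.26) and -0.07 (-0.54 to 0.39).

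Kv3 genes had higher levels there too. Kcnc1 stood at 30.4 and 8.20 CPM in Stmn2-positive and Stmn2-negative cells with supplements and at 22.8 and 6.26 CPM without, log2 ratios of 1.89 (1.60 to 2.19) and 1.86 (1.60 to 2.13). Kcnc4 was called higher in both libraries, and Kcnc2 with supplements (log2 1.76, 1.41 to 2.13), with 0.88 (0.45 to 1.31) without. Kcnb2 was at 108 and 114 CPM in Stmn2-positive and Stmn2-negative cells with supplements and at 81.4 and 36.4 CPM without, so it marked Stmn2-positive cells in the library without supplements (log2 1.16, 1.04 to 1.28) and not in the other (-0.07, -0.17 to 0.02). The modifier gene Kcns2, a silent partner of Kv2 pores, had log2 ratios of 2.73 (1.42 to 4.41) and 1.87 (0.95 to 2.83), and Kcng2, of the same class, 1.30 (0.15 to 2.63) and 2.48 (1.37 to 3.70). Kcnf1, the most abundant modifier gene, had 0.68 (0.31 to 1.07) and 1.05 (0.65 to 1.44), called in the library without supplements.

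Single genes of the BK, leak and G-protein-gated channels were higher in Stmn2-positive cells as well, with fewer calls in the supplemented library. Of the tandem-pore genes, 2 of 8 were called higher and 1 lower with supplements, and 5 of 8 higher and none lower without. Of the inward rectifiers, 1 of 6 was called higher and 1 lower with supplements, and 3 of 7 higher and 1 lower without. Kcnma1 stood at 24.0 and 11.6 CPM in Stmn2-positive and Stmn2-negative cells with supplements and at 39.4 and 8.41 CPM without, log2 ratios of 1.06 (0.80 to 1.32) and 2.23 (2.02 to 2.45). Kcnk9 stood at 68.3 and 25.8 CPM with supplements and at 37.5 and 7.27 CPM without, log2 ratios of 1.4 (1.24 to 1.57) and 2.37 (2.14 to 2.60). Kcnj5 had log2 ratios of 1.16 (0.93 to 1.41) and 1.02 (0.84 to 1.20), and Kcnk3 0.97 (0.52 to 1.44, not called) and 1.75 (1.53 to 1.97). Kcnk2 had -0.23 (-0.37 to -0.09) with supplements and 1.09 (0.92 to 1.26) without. Kcnj6, a GIRK subunit, had -0.31 (-1.32 to 0.73) with supplements and 2.36 (1.56 to 3.22) without. No SK gene was called in either library, and Kcnn3, the most abundant of them, had -0.56 (-1.09 to -0.03) and 0.29 (-0.21 to 0.77). Kcnk4, a mechanically gated (TRAAK) pore, rested on 22 and 2 UMIs with supplements (log2 2.76, 0.74 to 5.89) and was at 0.15 (-0.98 to 1.21) without. Among Kv1 genes, Kcna4 and Kcna6 were called higher in both libraries, and Kcna1 was called without supplements, at 17.6 and 4.93 CPM (log2 1.83, 1.54 to 2.13), against 5.75 and 4.57 CPM with them (0.33, -0.11 to 0.79).

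Few members were lower in Stmn2-positive cells. With supplements these were Kcnj8, the pore of vascular-type ATP-sensitive channels (0.571 CPM in Stmn2-positive and 2.07 CPM in Stmn2-negative cells, log2 -1.86, -2.92 to -0.87), Kcng1, a modifier gene (log2 -1.32, -2.36 to -0.32), and Kcnk5, an alkaline-activated tandem-pore channel of epithelia (log2 -1.22, -2.24 to -0.24), each from 42 UMIs or fewer. Kcng1 turned to 0.13 with the cells split by Snap25, and Kcnk5 to 0.53 with cells thinned to 1000 UMIs. Without supplements it was Kcnj15, an inward rectifier of epithelia, at 1.34 and 4.05 CPM (log2 -1.60, -2.38 to -0.90). Kcnmb2 was lower by just under 2-fold with supplements (15.2 and 30.4 CPM, log2 -1.0, -1.20 to -0.79) and level without (18.1 and 17.6 CPM, 0.04, -0.18 to 0.25). Kcnab1 was lower with supplements (55.6 and 87.5 CPM, -0.65, -0.77 to -0.54) and level without (26.8 and 26.9 CPM, -0.01, -0.19 to 0.17). At 4 dpi the 48 Stmn2-positive cells held 34 UMIs of protein-coding members, and of 17 members with enough UMIs Kcnmb2 alone was called higher, from 4 against 49 UMIs, while 2.95% of 12080 symbols were called higher and 1.05% lower.

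**Figure D3:**
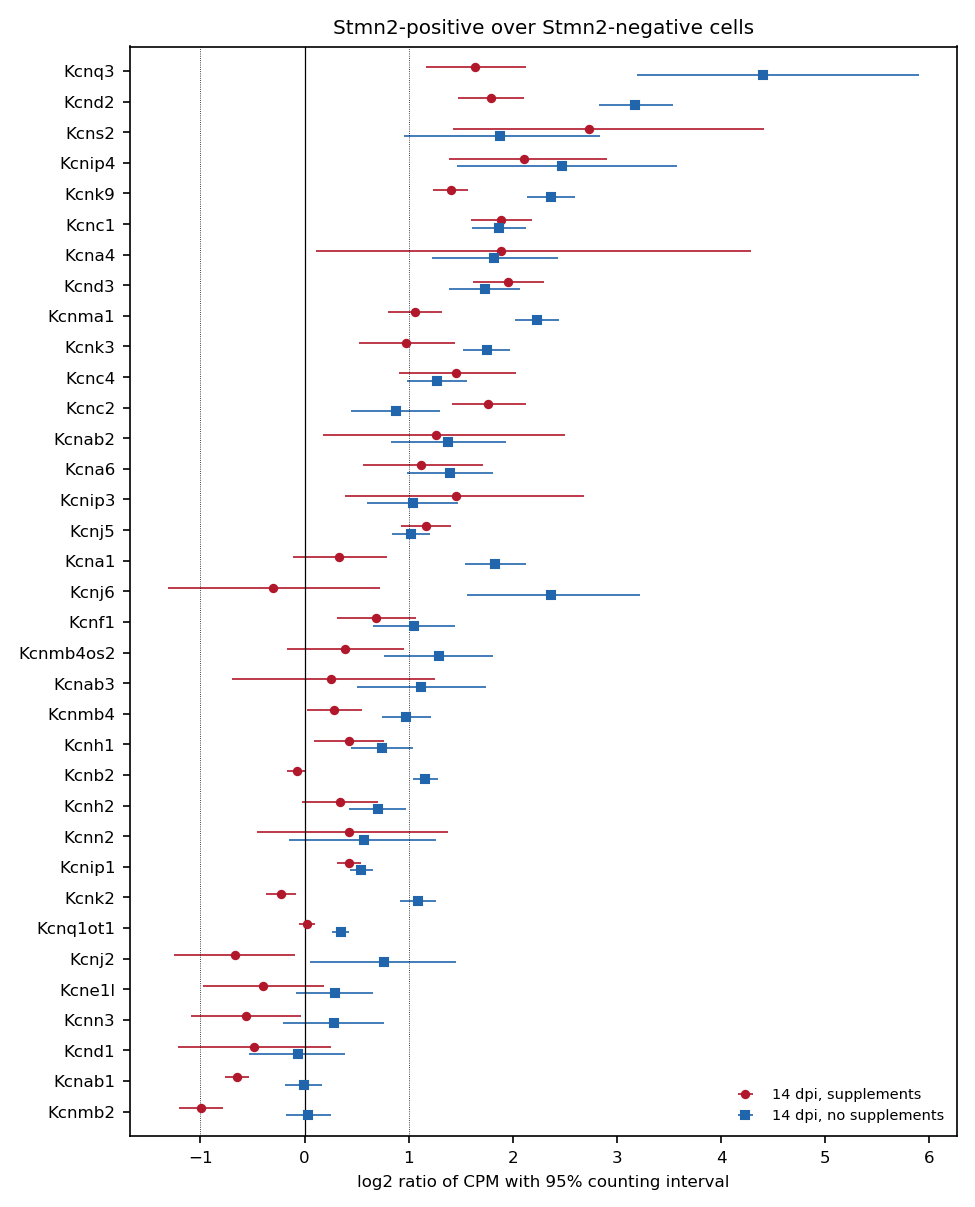
Log2 ratio of CPM in Stmn2-positive over Stmn2-negative cells for members named in the text (rows) in the 14 dpi library with supplements and the 14 dpi library without supplements, with 95% counting intervals; dotted lines mark 2-fold. Kcnq3 and Kcnd2 lie to the right of the upper line in both, and Kcnmb2 and Kcnab1 at or left of 0 with supplements and near 0 without.

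The split was also read in finer steps, with cells grouped by 0, 1 to 2, 3 to 9 and 10 or more Stmn2 UMIs. Each library had 36 members with at least 100 UMIs, not all of them the same. Of these, 14 had a higher level at every step with supplements and 22 without, and 2 and 1 had a lower level at every step. Of all symbols with as many UMIs, 20.1% of 11893 were higher at every step with supplements and 26.3% of 12197 without, and 13.8% and 14.3% were lower. Kcnd2 had 7.06, 8.75, 17.8 and 30.6 CPM over the 4 bins with supplements, and 2.66, 8.51, 14.7 and 38.5 CPM without. Its level was thus highest in the cells with the most Stmn2 of either library. Kcnma1 had 11.6, 9.46, 14.2 and 30.8 CPM with supplements, and 8.41, 14.6, 19.4 and 65.9 CPM without. Kcnb2 stayed between 99.3 and 118 CPM in all bins with supplements, and had 36.4, 56.0, 76.2 and 98.9 CPM without, so the libraries were closest in the highest bin. Kcnab1 was lower at every step with supplements, with 87.5, 82.1, 65.8 and 45.3 CPM, and lay between 20.1 and 31.0 CPM without. Kcnmb2 was lower at every step with supplements, with 30.4, 27.0, 22.2 and 10.0 CPM, and had 17.6, 24.4, 27.3 and 8.75 CPM without, so it was lowest in the highest bin of both. Cells in the highest bin were deeper, with medians of 16643.5 and 13726 UMIs, against 13158 and 10214 UMIs in cells without Stmn2.

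**Figure D4:**
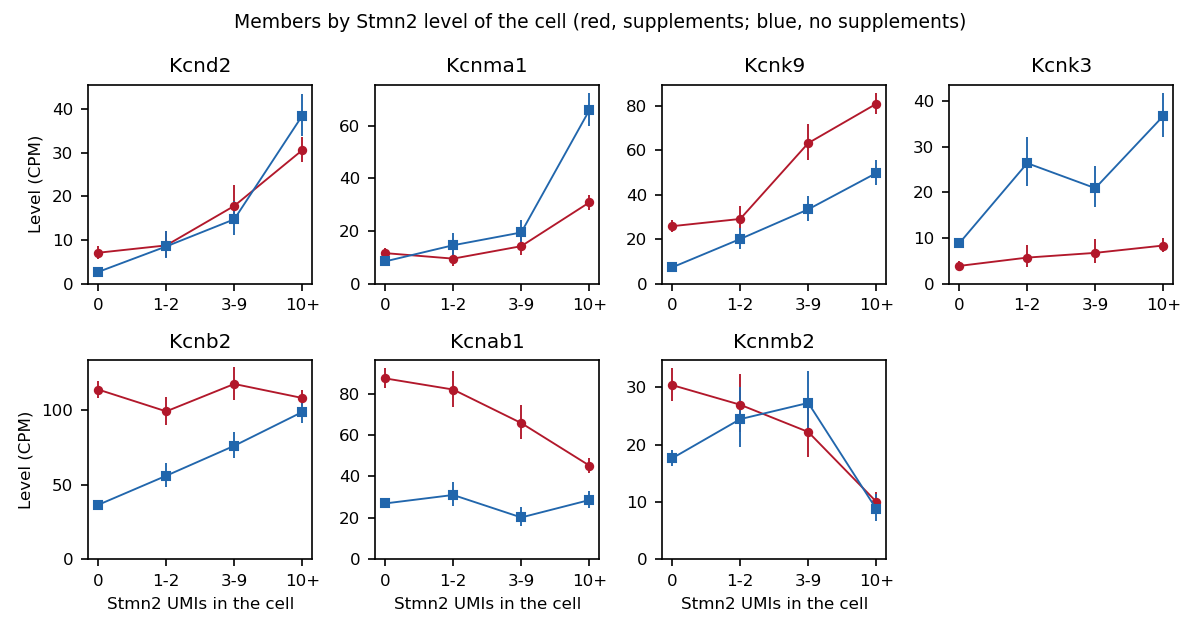
Level in CPM (linear axis from 0) of 7 members in cells with 0, 1 to 2, 3 to 9 and 10 or more Stmn2 UMIs, for the 14 dpi library with supplements (circles) and the 14 dpi library without supplements (squares), with 95% Poisson counting intervals. Kcnd2 is higher at every step in both libraries, and Kcnmb2 is lowest in the highest bin of both.

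Supplements at 14 dpi went with a different mix of channel genes. With supplements over without, 20 of 74 members with enough UMIs were called higher and 9 lower, while 10.2% of 16059 symbols were called higher and 7.27% lower. The median log2 ratio was 0.29 against 0.03 over all symbols, and the summed protein-coding members gave 0.61 (0.58 to 0.64). Since 57.9% and 26.5% of cells were Stmn2-positive, the comparison was repeated within Stmn2-positive cells, where 10 of 65 members were called higher and 14 lower, while 7.61% of 14794 symbols were called higher and 8.9% lower. There the median was -0.16 and the summed members gave 0.08 (0.04 to 0.11), so the totals of Stmn2-positive cells were close. Within Stmn2-negative cells, a comparison added after the data were seen, 15 of 64 were called higher and 8 lower, while 8.38% of 14777 symbols were called higher and 6.91% lower. All 10 members called higher in Stmn2-positive cells were among the 20 of all cells, and of the 14 called lower there 7 were among the 9. These comparisons share cells, so the overlap is no separate evidence.

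The members higher with supplements came from several classes. Kcnq3 had 7.39 CPM with and 1.37 CPM without supplements, a log2 ratio of 2.43 (2.03 to 2.85), and 1.32 (0.89 to 1.76) within Stmn2-positive cells. Kcnc2 had 14.0 and 4.14 CPM (1.75, 1.51 to 2.0), and 19.1 and 6.05 CPM in Stmn2-positive cells (1.66, 1.32 to 2.01), while Kcnc4 had 6.63 and 14.8 CPM there (-1.15, -1.47 to -0.85). These 2 Kv3 genes thus differed in direction there. Kcnip4 had log2 ratios of 2.10 (1.59 to 2.63) in all and 1.39 (0.81 to 2.02) in Stmn2-positive cells, the last turning to -0.17 with cells thinned to 1000 UMIs. Kcnip3, another calcium sensor that binds Kv4 pores, had -1.57 (-2.05 to -1.10) and -1.80 (-2.38 to -1.24). Kcnip1, the most abundant of the family, had 0.35 (0.27 to 0.43) and 0.14 (0.03 to 0.25).

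Rare members gave the largest ratios. Kcnv1, a modifier of Kv2 pores, had 2.96 CPM with and 0.327 CPM without supplements (log2 3.18, 2.39 to 4.07), and 2.17 (1.25 to 3.23) in Stmn2-positive cells. Kcnv2, of the same class, had 25 UMIs with and 0 without supplements. Its log2 ratio was 3.38 with the 0 set to a floor of 3 counts, which is not a lower limit. Kcnj8 had 42 and 2 UMIs, a log2 ratio of 4.71 (2.77 to 7.80), and its sulfonylurea receptor partner Abcc9 had 0.761 and 0.109 CPM. Most of the Kcnj8 UMIs, 29 of 42, came from Stmn2-negative cells, and Abcc9 had 0.439 CPM in Stmn2-positive and 1.28 CPM in Stmn2-negative cells of the supplemented library. The 6 Schwann markers summed to 129.8 CPM with and 43.6 CPM without supplements, with 3 of 3 called higher and none at 0, and the 6 endothelial markers to 23.0 and 11.3 CPM, with 1 of 4 called higher and Tek and Cldn5 at 0 without supplements. Their part in the Kcnj8 result was not tested.

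Some abundant members differed by a larger ratio in Stmn2-negative than in Stmn2-positive cells. Kcnb2 had 114 CPM with and 36.4 CPM without supplements in Stmn2-negative cells (log2 1.65, 1.53 to 1.76) and 108 and 81.4 CPM in Stmn2-positive cells (0.41, 0.31 to 0.51). Kcnk2 had 51.1 and 17.8 CPM in Stmn2-negative cells (1.52, 1.36 to 1.68) and 43.6 and 37.9 CPM in Stmn2-positive cells (0.20, 0.05 to 0.36). Kcnk9 had 25.8 and 7.27 CPM in Stmn2-negative cells (1.83, 1.59 to 2.07) and 68.3 and 37.5 CPM in Stmn2-positive cells (0.87, 0.72 to 1.01). In these 3 genes the ratio was larger in Stmn2-negative cells, though the difference of the ratios has no test with 1 library each. Kcnab1 was called higher in both, with 87.5 and 26.9 CPM in Stmn2-negative cells (1.70, 1.57 to 1.83) and 55.6 and 26.8 CPM in Stmn2-positive cells (1.05, 0.89 to 1.22).

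The members lower with supplements were single genes of several subfamilies. Of the tandem-pore genes 4 of 10 were called higher and 1, Kcnk3, lower over all cells. Kcnk3 had 6.14 CPM with and 15.2 CPM without supplements (log2 -1.31, -1.53 to -1.09), and 7.56 and 29.5 CPM in Stmn2-positive cells (-1.97, -2.23 to -1.71). The 2 acid-sensitive leak genes thus differed in direction, Kcnk9 being higher and Kcnk3 lower with supplements over all cells. Kcnj15 had 4 UMIs with and 147 without supplements (-4.88, -6.78 to -3.49), of which 128 came from Stmn2-negative cells. Of 4 Kv1 genes with enough UMIs, Kcna4 was called lower over all cells, Kcna1 and Kcna4 within Stmn2-positive cells, and none higher in either. Kcna4 had a log2 ratio of -1.95 (-2.70 to -1.26), and -2.46 (-3.31 to -1.69) in Stmn2-positive cells. Kcna1, its axonal relative, had 5.75 and 17.6 CPM in Stmn2-positive cells (-1.61, -1.93 to -1.30), and Kcnab2, a beta subunit of Kv1 channels, 1.54 and 4.36 CPM (-1.50, -2.14 to -0.88). No G-protein-gated subunit was called lower over all cells. Kcnj6 had 0.922 and 3.09 CPM in Stmn2-positive cells (-1.75, -2.57 to -0.96), while Kcnj5 had 29.4 and 34.9 CPM (-0.25, -0.42 to -0.08). Kcnh4, an ELK-class pore, rested on 9 and 34 UMIs there (-2.60, -3.84 to -1.51). Kcne1l was lower in all cells (-1.09, -1.43 to -0.76), and Kcnn4 had 14 and 71 UMIs (-2.02, -2.97 to -1.18).

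Several abundant members did not differ by 2-fold. Kcnma1 had 19.3 CPM with and 18.0 CPM without supplements, Kcnj5 23.2 and 22.7 CPM, and Kcnmb2 21.0 and 17.8 CPM. In Stmn2-positive cells Kcnd2 had 24.4 and 24.0 CPM. Of the 18 neuron markers, none was called higher and 2 (Rbfox3 and Snhg11) lower in Stmn2-positive cells with supplements, and their sum was 12721 CPM with and 10717 CPM without, while 3 of the 15 fibroblast markers were called higher and 3 lower.

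**Figure D5:**
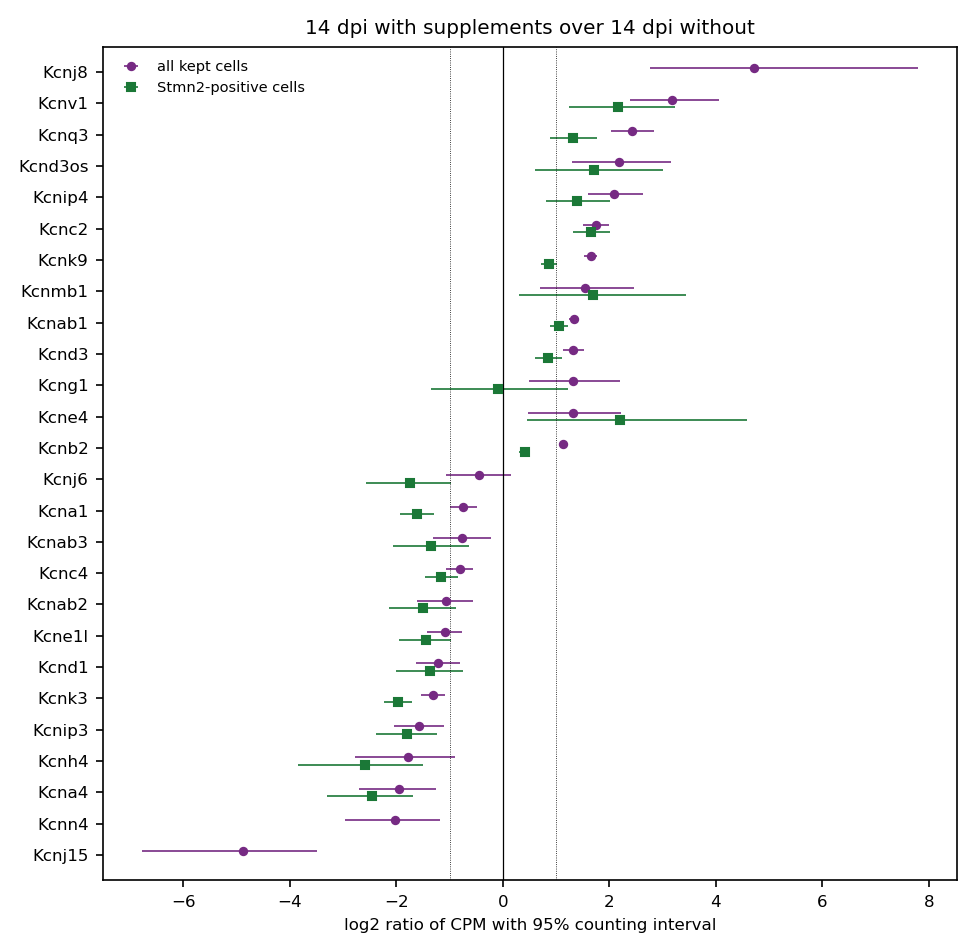
Log2 ratio of CPM at 14 dpi with supplements over without supplements for members named in the text (rows), in all kept cells and in Stmn2-positive cells, with 95% counting intervals; dotted lines mark 2-fold. Kcnq3, Kcnc2 and Kcnab1 lie right of the upper line in both sets of cells, Kcnk3 and Kcna4 left of the lower line, and Kcnv2, at 0 without supplements, is not drawn.

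Other genes of membrane excitability were read from lists of named genes. Over all symbols tested, 21.5% were called higher and 10.3% lower with supplements than at 4 dpi, and 20.7% and 10.7% without. With supplements over without, the shares were 10.2% higher and 7.27% lower over all cells, and 7.61% and 8.9% in Stmn2-positive cells. Of the voltage-gated sodium channel genes, which carry the upstroke of the action potential, 9 of 10 with supplements and 10 of 11 without were called higher than at 4 dpi and none lower. With supplements over without, 1 of 11 (Scn8a) was called higher and 4 lower, and in Stmn2-positive cells none was called higher and 6 lower. Their sum was 86.7 CPM with supplements, 137 CPM without and 40.2 CPM at 4 dpi, so its order at 14 dpi was the opposite of that of the potassium channels. Of the calcium channel genes, 12 of 15 were called higher than at 4 dpi in each 14 dpi library. With supplements over without, 2 of 15 calcium channel genes were called higher and 3 lower. Cacna1b, the N-type pore of nerve terminals, had 55.8, 17.8 and 2.46 CPM. All 4 HCN genes, which carry the current activated by hyperpolarization, were called higher at 14 dpi in each library. With supplements over without, none was called over all cells, and Hcn2 was called lower in Stmn2-positive cells. The HCN genes summed to 239 CPM with and 132 CPM without supplements over all cells. Among sodium pump genes, which keep the potassium gradient, 1 of 11 (Atp1b1) was called higher and 6 lower with supplements over without. Their sum ran the other way, at 1058 CPM with and 587 CPM without supplements.

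Partners of potassium channels outside the Kcn names were read in a list that also held Rest, a repressor of neuronal genes and no partner. Of 16 listed genes with enough UMIs, 10 were called higher with supplements than at 4 dpi and 1, Rest, lower. Of 13 without supplements, 8 were called higher and 1, again Rest, lower. Over all symbols the shares were 21.5% higher and 10.3% lower with supplements, and 20.7% and 10.7% without. Dpp6, which escorts Kv4 pores to the membrane, had 9.98 and 5.91 CPM in the supplemented and unsupplemented libraries and 0 at 4 dpi. It stood at 14.4 CPM in Stmn2-positive and 2.85 CPM in Stmn2-negative cells with supplements, and at 15.5 and 1.58 CPM without. Rest, called lower in both, had 28.7, 36.6 and 98.7 CPM in the supplemented, unsupplemented and 4 dpi libraries. In Stmn2-positive and Stmn2-negative cells Rest stood at 15.3 and 50.4 CPM with supplements and at 15.8 and 46.0 CPM without, log2 ratios of -1.72 and -1.54. With supplements over without, 10.2% of all symbols were called higher and 7.27% lower. Of 5 potassium-chloride cotransport genes, none was called higher and 2 lower in that comparison. Among them Slc12a5, the neuronal chloride extruder, had 1.47, 3.93 and 0.410 CPM in the supplemented, unsupplemented and 4 dpi libraries.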

How the data were processed

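Per the file headers and the submitters' processing notes, the deposited files are UMI count matrices of single cells from Cell Ranger 6.1.1 on GRCm39, 1 matrix for each of the 3 libraries; the sources used here do not give whether introns or strand were used in counting. The count values that the authors deposited were whole numbers with no normalization. From them, barcodes were kept at a minimum of 500 genes and a maximum of 20% mitochondrial UMIs (2314 of 2467, 3716 of 3893 and 4492 of 4602 in the supplemented, unsupplemented and 4 dpi libraries). UMIs were summed per symbol over all kept cells and over cells with at least 1 and with 0 Stmn2 UMIs, and scaled to CPM. Scrublet called 3, 2 and 2 cells, too few to have worked, so doublets were kept, and an alternative left out the 5% of cells with the highest scores.

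Ratios are on the log2 scale. Their 95% intervals come from exact binomial limits on the split of the UMIs between both sums, those of levels from exact Poisson limits, and those of shares of cells from exact binomial limits, and all cover counting error only. Against a sum of 0, a floor of 3 counts per library was used. With 1 library per group no replicate test was possible. The members and all gene lists were chosen with earlier results of these data known. Members named are the 10 highest in each library, the 6 highest and 6 lowest called in each comparison and the highest of each subfamily, 47 in all; others were named after their values were seen, to complete a subfamily. The script was tested on simulated data. Tools were Python 3.11.15, numpy 2.4.6, scipy 1.17.1, pandas 2.3.3, scanpy 1.11.5, matplotlib 3.10.9, R 4.3.3 and edgeR 4.0.16, the last for scaling factors only. Some members are not reported here. Promoter windows came from RefSeq on GRCm38.p6, matched by symbol.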

Additional observations from a re-analysis of the deposited data

Results flagged for a closer look

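For 3 members the direction of a contrast differed between the 14 dpi libraries, and the difference itself was not tested. Kcnj2 had a log2 ratio of Stmn2-positive over Stmn2-negative cells of -0.67 (-1.25 to -0.09) with supplements and 0.76 (0.05 to 1.46) without. Kcnk2 had -0.23 (-0.37 to -0.09) with supplements and 1.09 (0.92 to 1.26) without. Kcnab1 had a log2 ratio to 4 dpi of 0.98 with supplements and -0.35 without, both against the same 4 dpi library.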

How the results depend on the processing

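With every cell thinned to 1000 UMIs, fewer members held enough UMIs, and the calls were 12 of 31 for supplements over none in all cells (29 unthinned), 18 of 23 for supplements over 4 dpi (49), 17 of 24 for no supplements over 4 dpi (48), 7 of 19 and 14 of 22 for the Stmn2 split with and without supplements (28 and 38), 0 of 9 for that split at 4 dpi (1) and 4 of 25 for supplements over none in Stmn2-positive cells (24). Of the 12, 7 were among the 29. Over all symbols the thinned calls were 13.6%, 26.1%, 27.3%, 11.7%, 15.0%, 3.28% and 12.3% of those tested, in the same order of comparisons. The single call at 4 dpi became 13 from the mean CPM of cells, 2 with no minimum of UMIs and 3 with a Snap25 split. All other counts of calls stayed within 1.5 times, and with Stmn2 called after thinning, supplements over none in Stmn2-positive cells gave 4 higher and 16 lower. The sign turned for Kcnk5 (log2 0.53, thinned) and Kcng1 (0.13, split by Snap25) in the Stmn2 split with supplements, and for Kcnip4 (-0.17, thinned) with supplements over none in Stmn2-positive cells; the cause was not tested. Of the named ratios and subfamily sums over all alternatives, 2214 values stayed within the counting interval, 324 left it and 3 turned. TMM scaling shifted the median of all symbols by -0.13 for supplements over 4 dpi, and by -0.18 and -0.16 for the Stmn2 split without supplements and at 4 dpi, and CPM without mitochondrial and ribosomal protein genes by -0.10 for the split without supplements. No paired analysis was possible because each group holds 1 library, and no library could be left out. The 48 Stmn2-positive cells at 4 dpi set a floor of 21.2 CPM, so few members could be compared there.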
